A study of Drosophila melanogaster with 33 samples.

Results

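The Antennapedia complex of Drosophila melanogaster is a Hox gene cluster on chromosome 3R that holds lab, pb, Dfd, Scr and Antp. Its binding sites were taken here as every ChIP-seq peak that overlapped the window 3R 2480000 to 2830000 of genome build dm3, a choice by position that used no measured value. Of the 94396 peaks in the 13 deposited lists, 190 lay in this window of 350 kb, against 17640 on the rest of 3R.

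The tagged line, S2-DRSC-HA::AbdA (S2-AbdA cells below), was stably transfected with HA-tagged AbdA, a Hox protein of the Bithorax complex. The other line, S2-DRSC (S2 cells below), was wild type. Both derive from late embryos, and all cells received 10 µM copper sulphate for 24 h, so the wild-type line carries the treatment too. The labels name neither the promoter of the transgene nor whether the transfected line is 1 clone. They list 33 samples, of which 26 share the 13 peak lists, 6 are input DNA and 1 is an HA precipitation from S2 cells. The lists cover HA-AbdA in S2-AbdA cells, and in both lines Rpb3 (a core subunit of RNA polymerase II), Ser2P (polymerase with its tail phosphorylated at serine 2, the elongating form), M1BP, GAF, dRing and E(z).

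Hox genes encode homeodomain transcription factors that give body segments their identity: lab, pb and Dfd act in the head, Scr in the labial and prothoracic segments and Antp in the thorax. Outside the segments where a Hox gene is active, Polycomb proteins keep it silent. E(z) is the methyltransferase of Polycomb repressive complex 2 and acts on histone H3, while dRing is the ubiquitin ligase of Polycomb repressive complex 1 and acts on histone H2A. M1BP is a zinc finger protein that binds Motif 1 in core promoters, and GAF (GAGA factor) binds GA-rich sequence, also in many of the Polycomb response elements of the Hox clusters.

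The 2 replicates of a precipitation share a single list, so no value below has a spread between replicates and no test was possible. Read counts are not part of a peak list, so depth is unknown and a missing peak is not a measured absence of binding. A peak's score is the authors' own, of unstated unit, and is used only to rank peaks within a list. Its percentile is its rank among the list's peaks on the 6 arms of the genome (X, 2L, 2R, 3L, 3R and 4), where 100 is the highest. The labels give S2 samples the input code B and S2-AbdA samples the code D, or C for GAF and HA-AbdA, so line and input cannot be told apart. A peak list carries no expression, so the identity of the cells was not checked.

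Intervals for the genes were set from approximate dm3 positions and cover 58.9% of the window. Checked against the spacing of the genes in Release 6 of the fly genome, the intervals of lab (2487000 to 2504000), Scr (2648000 to 2676000) and Antp (2720000 to 2826000) kept the right distances. Those of pb (2510000 to 2550000) and Dfd (2625000 to 2640000) did not, so a peak in either, or in the gaps beside them, is placed by position only and is not assigned to a gene. In Release 6 the genes between lab and pb are mostly Ccp84A cuticle genes, and those between pb and Dfd include zen, zen2, bcd and Ama. Between Dfd and Scr lie mir-10 and other RNA genes with 0 protein-coding genes, and ftz lies between Scr and Antp. An overlap below means at least 1 shared base.

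The complex was dense in dRing peaks, less so in E(z) peaks, and sparse in polymerase peaks. dRing had 30 peaks in S2-AbdA cells and 31 in S2 cells. These are 85.7 and 88.6 peaks per Mb of the complex, against 36.7 and 25.7 per Mb of 3R. dRing was thus 2.34 times and 3.45 times as dense in the complex as on 3R, the largest ratios of the 13 lists. E(z) had 17 peaks in each line, or 48.6 per Mb, against 34 per Mb of 3R in S2-AbdA cells and 37.4 in S2 cells. These E(z) peaks were narrower than elsewhere, with medians of 324 and 282 bp against 411 and 405 bp over the arms. They covered no more of the complex than of 3R, at 2.01% against 2.02% in S2-AbdA cells and 1.99% against 2.19% in S2 cells, while dRing covered 4.42% against 1.87% and 5.9% against 1.58%. Rpb3 had 6 peaks in S2-AbdA cells and 7 in S2 cells, which are 17.1 and 20 per Mb against 78.1 and 81.4 per Mb of 3R. Ser2P had 3 peaks in S2-AbdA cells and 1 in S2 cells, or 8.57 and 2.86 per Mb against 29.9 and 13.7. Polymerase density in the complex was thus 0.22 and 0.246 times that of 3R for Rpb3, and 0.286 and 0.208 times for Ser2P, in S2-AbdA and S2 cells. Without the stretch below lab, Rpb3 kept 2 peaks in S2-AbdA cells and 3 in S2 cells, and Ser2P kept 0 in S2 cells.

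The sequence-specific factors lay nearer to the level of the chromosome. M1BP had 11 peaks in S2-AbdA cells and 13 in S2 cells, 0.731 and 0.774 times the density of 3R. GAF had 23 peaks in S2-AbdA cells and 12 in S2 cells, 0.834 and 0.756 times that of 3R. HA-AbdA had 19 peaks, or 54.3 per Mb against 87.1 per Mb of 3R. HA-AbdA peaks were also narrow in the complex, with a median width of 525 bp against 836 bp over the arms, and they covered 3.51% of the complex against 10.5% of 3R. dRing went the other way, with median widths of 528.5 bp in S2-AbdA cells and 567 bp in S2 cells, against 380 and 427 bp over the arms.

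**Figure D1:**
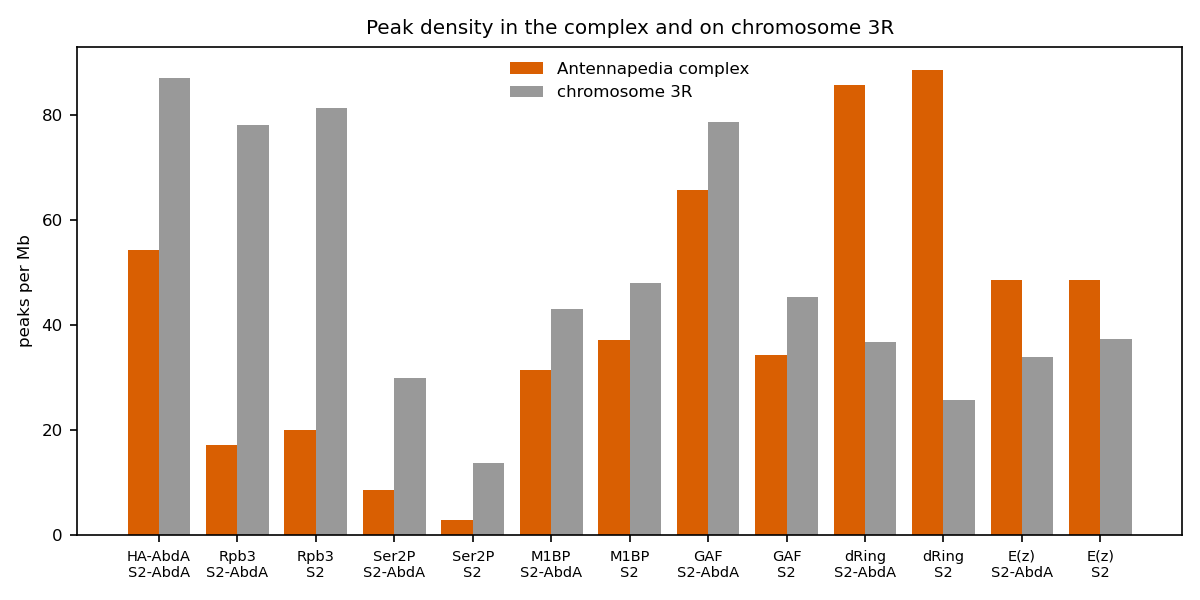
Peaks per Mb in the Antennapedia complex (orange) and on the whole of chromosome 3R (grey) for each of the 13 lists, named by factor and line; bars start at 0 and have no error, since replicates share a list. In the lists of either line the orange bar is the taller one for dRing and for E(z), and it is far below the grey one for Rpb3.

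By score, dRing and HA-AbdA peaks of the complex stood high in their lists. The median dRing percentile was 85.2 in S2-AbdA cells and 86.1 in S2 cells, and 14 of the 30 and 12 of the 31 peaks were in the top 10% of the list. The median HA-AbdA percentile was 87.5, with 8 of 19 peaks in the top 10%. E(z) peaks were close to the middle of their lists, at medians of 55.7 in S2-AbdA cells and 59.2 in S2 cells. M1BP peaks lay at 35.1 and 47.8, and GAF peaks at 43.3 and 47.7, in S2-AbdA and S2 cells. Many dRing peaks of the complex thus ranked high in their lists, while its M1BP and GAF peaks were of ordinary rank.

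**Figure D2:**
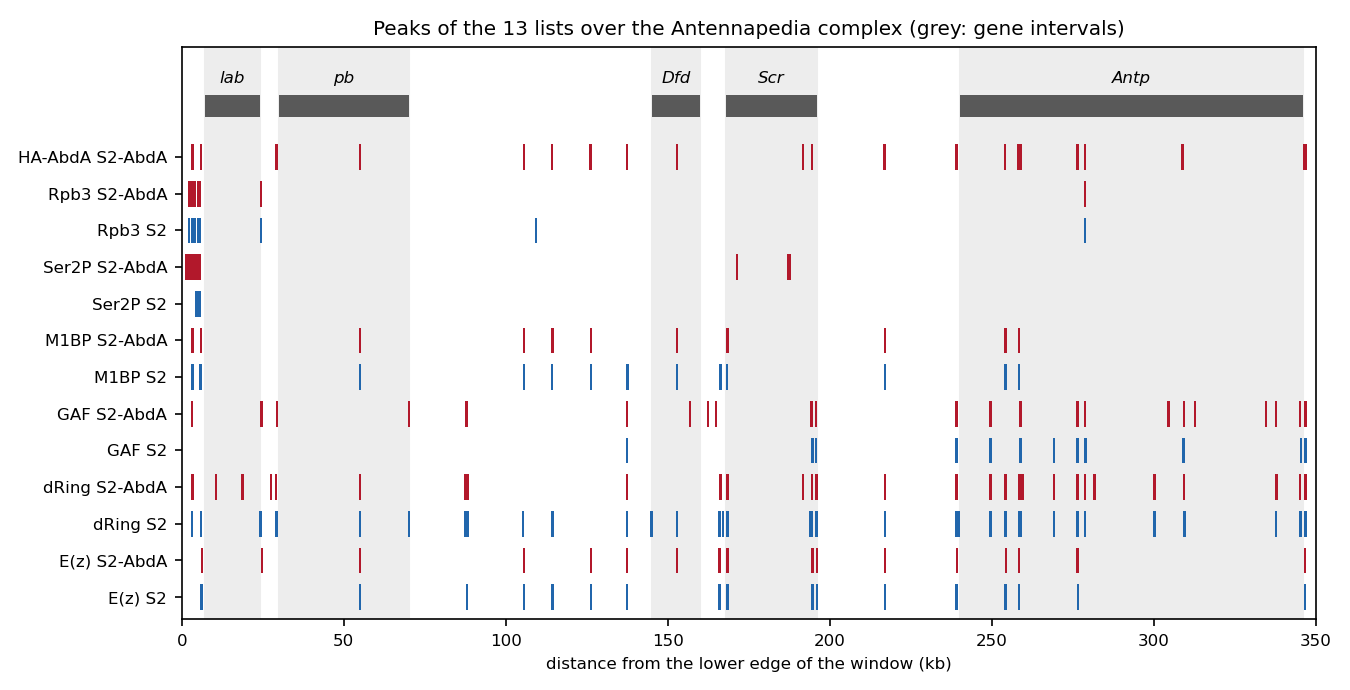
Peaks of the 13 lists over the window, as distance in kb from its lower edge, with lists from S2-AbdA cells in red and from S2 cells in blue; grey marks the gene intervals, of which those of pb and Dfd are approximate. The Antp interval holds more dRing and GAF peaks than any other stretch, M1BP peaks stop short of the upper part of Antp, and Rpb3 peaks cluster below lab.

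The 19 HA-AbdA peaks carry the tagged Hox protein and were spread over the whole window. The highest began at 2733741 in Antp, with a score of 179.7 and rank 89 of the 10312 HA-AbdA peaks on the arms. The next began at 2534521 in the pb interval, with 158.7 and rank 169. Those at 2755936 and 2737777, both in Antp, had scores of 140.4 and 128.1. The peak at 2674034 in Scr, near the upper end of the gene where Scr begins, had a score of 119.2 and percentile 94.6. Antp held 5 HA-AbdA peaks and Scr 2, the pb and Dfd intervals held 1 each and lab none. The other 10 lay outside the gene intervals, 4 of them between the pb and Dfd intervals at percentiles of 93.2, 91.7, 33.2 and 92.9. Of the remaining 6, 2 lay below lab, 1 just above it, 2 between Scr and Antp, and 1 above Antp.

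Most HA-AbdA peaks of the complex lay on Polycomb peaks. Of the 19, 14 overlapped a dRing peak of S2-AbdA cells (73.7%, exact Clopper-Pearson 95% interval 48.8 to 90.9%), where the share over the arms was 17.9%. For dRing peaks of S2 cells, the wild-type line, it was 17 of 19 (89.5%, 66.9 to 98.7%) against 15.5% over the arms. E(z) was at 13 of 19 in either line (68.4%, 43.4 to 87.4%), against 20.7% over the arms in S2-AbdA cells and 23.7% in S2 cells. Among peaks in the upper 50% of their whole list by score, the E(z) share was 33.3% for S2-AbdA and 25% for S2 lists. Whole lists include peaks off the arms. On the arms lie 3958 of 6558 E(z) peaks of S2-AbdA cells and 4309 of 6619 of S2 cells. Of the 17 E(z) peaks of the complex in each line, 10 and 11 lay above the median score on the arms. The 95% intervals cover counting error alone, and neighbouring peaks are not independent. Both Polycomb proteins together were at 9 HA-AbdA peaks in S2-AbdA lists and at 12 in S2 lists, against 9.53% and 11.1% over the arms. At least 3 of the 6 factors were at 12 and 14 HA-AbdA peaks, against 33.1% and 27%.

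Counted from the other side, the dRing peaks of the complex carried HA-AbdA at a share close to that over the arms. HA-AbdA was at 15 of 30 dRing peaks of S2-AbdA cells and 18 of 31 of S2 cells, against 50.1% and 56.3% over the arms. It was at 13 of 17 E(z) peaks in either line, against 60.2% in S2-AbdA cells and 62.9% in S2 cells. M1BP peaks carried it at 10 of 11 in S2-AbdA cells and 11 of 13 in S2 cells, against 61.1% and 61.9%. For GAF peaks it was 10 of 23 and 8 of 12, against 57% and 56.1%, and for Rpb3 peaks 3 of 6 and 3 of 7, against 66% and 63.7%. Ser2P peaks had it at 1 of 3 in S2-AbdA cells and 1 of 1 in S2 cells, against 58.3% and 58.6%.

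Polymerase was at few of them. Rpb3 overlapped 3 of the 19 in each line (15.8%, 3.38 to 39.6%), against 45.6% over the arms in S2-AbdA cells and 47.4% in S2 cells. Ser2P was at 2 in S2-AbdA cells and 1 in S2 cells, against 26.2% and 11.4% over the arms. Of the 3 HA-AbdA peaks with Rpb3, 2 lay below lab and 1 in Antp at 2758402. M1BP was at 10 of 19 in S2-AbdA cells and 11 in S2 cells, against 29.4% and 32.9% over the arms, and GAF at 10 and 8, against 42.5% and 28.2%. Among peaks in the upper 50% of their list by score, the Rpb3 share was 8.33% in either line and that of M1BP 33.3% in S2-AbdA cells. Without the stretch below lab the Rpb3 share was 5.88% in either line. No HA-AbdA peak of the complex lacked all 6 factors in S2-AbdA cells, where 28.4% did so over the arms, and in S2 cells 1 did, against 34%.

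**Figure D3:**
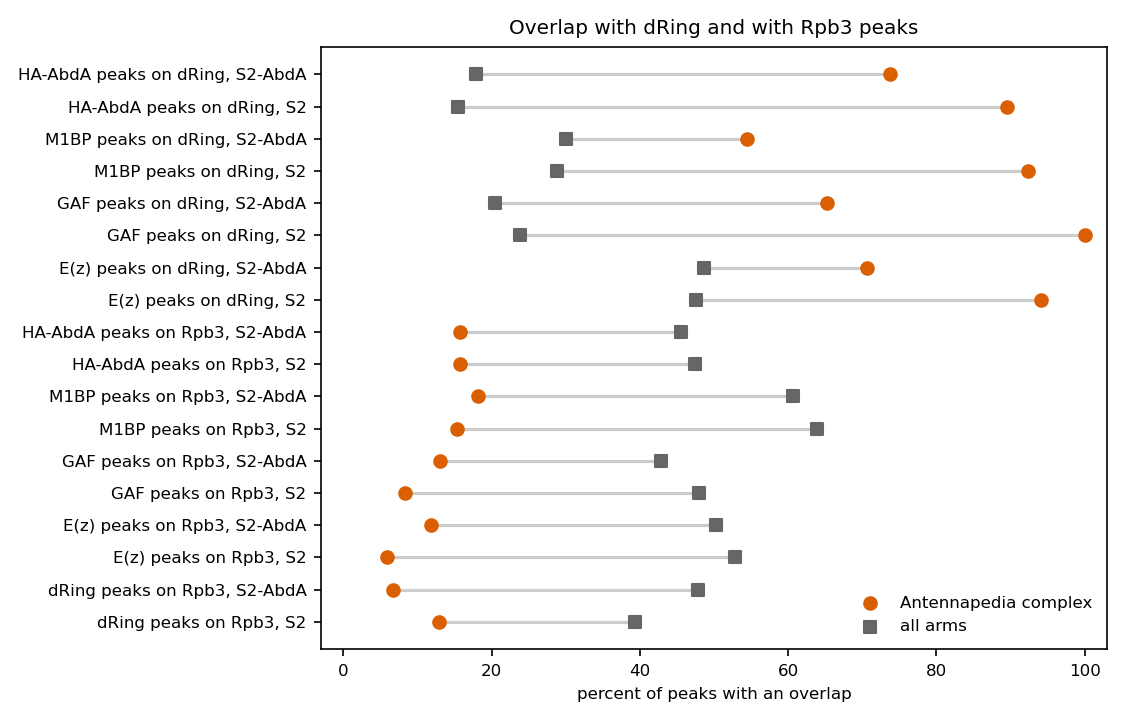
Percent of the peaks of a factor that overlap a dRing peak (upper 8 rows) or an Rpb3 peak (lower rows, dRing peaks included) of the named line. Orange circles give the complex and grey squares all arms. The complex lies to the right of the arms in every dRing row and to the left in every Rpb3 row.

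Most HA-AbdA peaks of the complex had M1BP or GAF, while the share with both factors was near that over the arms. With the lists of S2-AbdA cells, 8 HA-AbdA peaks had M1BP without GAF, 8 had GAF without M1BP, 2 had both and 1 had neither. Over the arms these shares were 18.3%, 31.4%, 11.1% and 39.2%. With the lists of S2 cells the counts were 9, 6, 2 and 2, against 24%, 19.3%, 8.89% and 47.8%. M1BP and GAF peaks themselves met at 1 of 11 M1BP peaks in S2-AbdA cells and 1 of 13 in S2 cells, against 26.5% and 24.6% over the arms.

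M1BP peaks of the complex mostly lacked polymerase and lay on Polycomb peaks. Overlap with Rpb3 was seen for 2 of 11 M1BP peaks in S2-AbdA cells and 2 of 13 in S2 cells, where the arms had 60.6% and 63.9%, and all 4 lay below lab. E(z) overlapped 9 of 11 and 11 of 13, against 39.5% and 41.2% over the arms. dRing overlapped 6 of 11 in S2-AbdA cells and 12 of 13 in S2 cells, against 30.1% and 28.8%. With factor peaks of either line counted, 7 sites above lab had HA-AbdA, M1BP and a Polycomb protein but no GAF and no Rpb3. Their HA-AbdA peaks began at 2534521, 2585133, 2593930, 2605737, 2632388, 2696535 and 2733741. At 2593930 the Polycomb peaks, dRing at percentile 77.5 and E(z) at 20.7, were of S2 cells alone. The site at 2737777 in Antp held M1BP in its lower part and GAF in its upper part, under a single HA-AbdA peak of 1378 bp.

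Over all overlapping pairs of the complex, HA-AbdA centres lay closer to factor centres than over the arms, for every factor but Ser2P. The median distance from an HA-AbdA centre to that of the overlapping M1BP peak (10 pairs in S2-AbdA cells, 11 in S2 cells) was 33.5 bp in S2-AbdA cells and 37 bp in S2 cells, against 114 bp over the arms in either line. To E(z) (13 pairs in each line) it was 19.5 and 35 bp, against 200.5 and 185.2 bp over the arms. To GAF (10 and 8 pairs) it was 96.25 and 76.5 bp, against 299.5 and 222.2 bp. For dRing (15 and 18 pairs) it was 72 and 27.5 bp, against 289.5 and 159.5 bp. For Rpb3 (3 pairs in each line) it was 136.5 and 137 bp, against 350.8 and 354.5 bp. Ser2P (2 pairs and 1 pair) went the other way, at 1333.2 and 830 bp against 853.8 and 636.5 bp. HA-AbdA peaks were also narrower here, as given above, and narrower peaks leave less room between centres.

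dRing peaks with GAF were, by their medians, broader and of higher rank than those with M1BP. In S2 cells all 12 GAF peaks of the complex overlapped dRing (100%), against 23.8% over the arms, and in S2-AbdA cells 15 of 23 did, against 20.5%. dRing peaks with GAF and no M1BP had a median width of 575 bp in S2-AbdA cells (15 peaks) and 880 bp in S2 cells (11 peaks). Those with M1BP and no GAF had 263 bp (5 peaks) and 343 bp (11 peaks), and those with neither had 358 bp (9 peaks) and 651.5 bp (8 peaks). The classes overlapped in width: M1BP-type peaks reached 906 bp in S2-AbdA cells and 977 bp in S2 cells, and the broadest dRing peak of S2 cells, 1599 bp at 2566967, had neither factor. Their median percentiles were 95.3 and 93.1 for the GAF type, 74.4 and 83.7 for the M1BP type, and 25.3 and 58.7 for peaks with neither. Over the arms the percentiles ran the other way, at 49.1 in S2-AbdA cells and 37.5 in S2 cells for the GAF type, and 69 and 60.8 for the M1BP type. Over the arms the order of widths was the same in S2 cells, at 485.5 bp for the GAF type and 363 bp for the M1BP type. It was the reverse in S2-AbdA cells, at 382 and 458 bp. E(z) lay at 5 of 5 M1BP-type and 6 of 15 GAF-type dRing peaks in S2-AbdA cells, and at 9 of 11 and 5 of 11 in S2 cells. The same order held over the arms, with 79.4% and 40.1% in S2-AbdA cells and 81.3% and 60.7% in S2 cells.

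Merging the peaks of all lists gave 45 sites in the complex, of which 16 held a peak of 1 list alone (34.8% of sites over the arms did). Sites with 7 or more lists numbered 11, against 18.9% over the arms. dRing or E(z) was at 36 of 45 sites, against 32.5% over the arms, and 39 of 45 had no Rpb3 or Ser2P, against 49.1%. The site with most lists spanned 2481004 to 2486098 below lab and held 12 of the 13, all but GAF of S2 cells. In Release 6 the protein-coding genes nearest to lab on that side include Taf1, CG1307, twr and agt, so this cluster of polymerase and M1BP peaks cannot be assigned to a Hox gene. The site at 2737777 to 2739154 in Antp held 9 lists, and that at 2617069 to 2617760, between the pb and Dfd intervals, held 8.

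**Figure D4:**
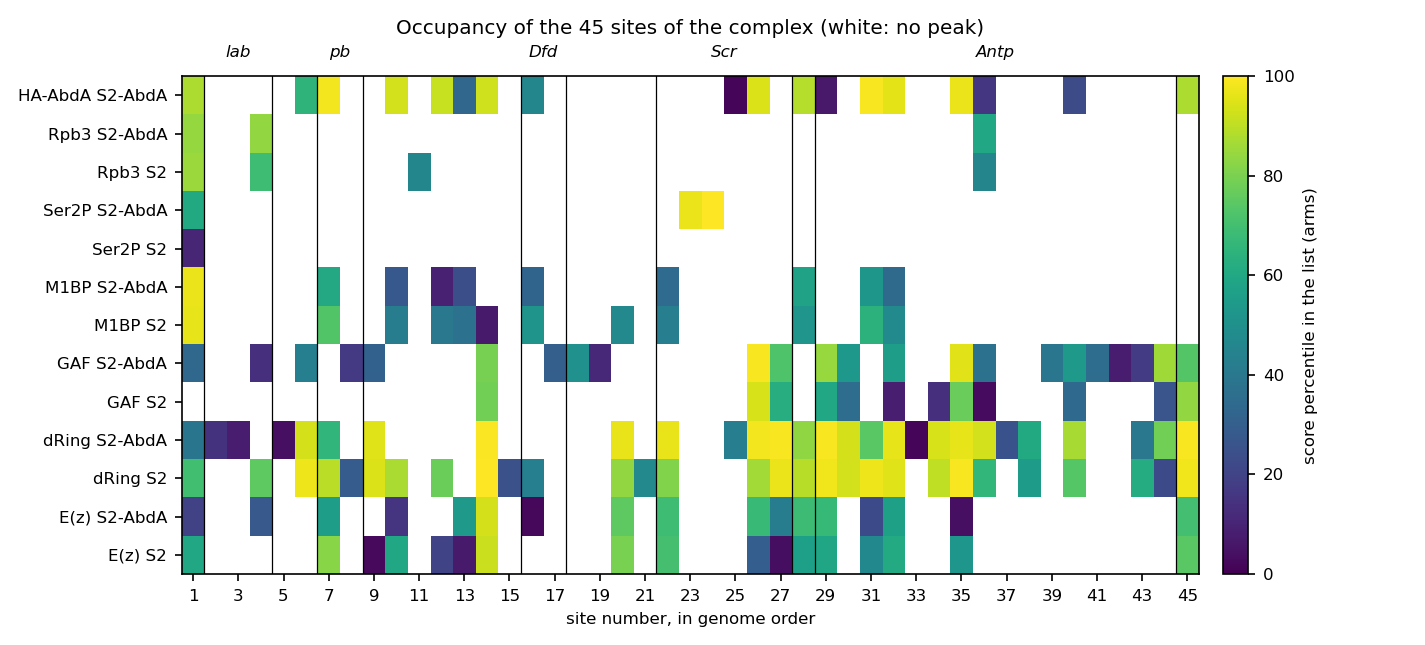
The 45 sites of the complex in genome order (columns) and the 13 lists (rows), coloured by the percentile of the highest peak of the list at the site, with white for no peak; vertical lines bound the gene intervals. Most columns from Scr onward have dRing in both lines, polymerase has peaks at sites 11, 23 and 24 alone between site 4 and site 36, and HA-AbdA, M1BP and E(z) share several narrow columns.

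lab, the Hox gene of the most anterior head segments, had the fewest peaks. Its interval held 3 peaks, all dRing: 2 in S2-AbdA cells, at 2490119 and 2498363 with percentiles of 14.8 and 7.8, and 1 in S2 cells, at 2503700 with 75.1. The S2 peak straddled the upper end of lab, where the gene begins. Just above that end, Rpb3 had a peak in both lines, at 2504057 with percentile 83.6 in S2-AbdA cells and at 2504074 with 68.8 in S2 cells. This start-proximal site also held GAF (percentile 13.8) and E(z) (27.9) of S2-AbdA cells, with no peak of either in S2 cells. Further up, at 2508815 to 2509393, dRing stood at percentiles of 93.6 in S2-AbdA cells and 97.4 in S2 cells, with HA-AbdA and, in S2-AbdA cells, GAF. When each gene interval was widened by 2 kb, the count for lab became 17, so its low count depends on where its ends are drawn.

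The pb interval held 9 peaks, of which 7 lay at 2534521 to 2535000: HA-AbdA, and M1BP, dRing and E(z) of both lines. HA-AbdA stood at percentile 98.4 there. M1BP was at 60.3 in S2-AbdA cells and 72.7 in S2 cells, dRing at 65.9 and 89.6, and E(z) at 55.7 and 82.1. The other peaks, at the upper edge of the interval, were GAF of S2-AbdA cells (17.1) and dRing of S2 cells (29.2). Above the interval, a dRing site at 2566967 to 2568565 had percentiles of 95.3 in S2-AbdA cells and 94.8 in S2 cells and no HA-AbdA.

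The strongest dRing site of the complex lay between the pb and Dfd intervals. The peak at 2617130 in S2-AbdA cells had a score of 164.6 and rank 18 of 4168 on the arms. Its counterpart at 2617103 in S2 cells had a score of 178.9 and rank 8 of 3061. The same site had E(z) at percentiles of 93.6 and 92, GAF at 79.6 and 78.7, and HA-AbdA at 92.9, with a low M1BP peak (7.4) in S2 cells alone. Without dm3 gene models, the start site nearest to it was not identified.

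The Dfd interval had 6 peaks at 2 sites, all of low or middle rank. At 2632368 to 2632767, HA-AbdA stood at percentile 46. M1BP was there in both lines, at 32.2 in S2-AbdA cells and 51.6 in S2 cells. dRing was there in S2 cells alone (43.2) and E(z) in S2-AbdA cells alone (2.15). The other site, at 2636392, was a GAF peak of S2-AbdA cells at percentile 30.1.

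Between the Dfd and Scr intervals, and at the lower end of Scr, lay a pair of broad Polycomb sites. At 2645500 to 2646508, dRing stood at 96.5 in S2-AbdA cells and 83.7 in S2 cells, and E(z) at 75.2 and 79.9. At 2647857 to 2648828, dRing stood at 96.6 and 81.2, E(z) at 69.1 and 70.4, and M1BP at 35.1 and 42.9. Neither site had HA-AbdA, GAF or polymerase, and M1BP at the lower of them was in S2 cells alone (47.2).

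Scr, the labial and prothoracic gene, held 23 peaks. Near its start, the site at 2673618 to 2674944 had the highest GAF peak of the complex, with a score of 367.1 and percentile 98.9 in S2-AbdA cells and 279.5 and 94 in S2 cells. dRing stood there at 98.4 and 86.1, E(z) at 67.9 and 29.8, and HA-AbdA at 94.6. A second site just above, at 2675381 to 2676338, had dRing at 99 and 97.2, GAF at 72.5 and 62.4 and E(z) at 42.3 and 3.55, without HA-AbdA. No Rpb3 peak lay in Scr in either line.

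Ser2P did have peaks in Scr, in S2-AbdA cells alone. The peak at 2666886 to 2667958 had a score of 119.2 and rank 7 of the 3629 Ser2P peaks on the arms in S2-AbdA cells. A smaller one at 2651033 to 2651495 had 31.61 and rank 104. Neither overlapped a peak of any of the other 12 lists, HA-AbdA, Rpb3 and Ser2P of S2 cells included. Over the arms, 63.9% of the Ser2P peaks of S2-AbdA cells overlapped Rpb3 of the same line, and 58.3% overlapped HA-AbdA. The shares there were 43.4% for M1BP, 45.1% for GAF, 36.5% for dRing and 37% for E(z). The single Ser2P peak of S2 cells in the complex lay below lab, at percentile 10.8, within a longer Ser2P peak of S2-AbdA cells.

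Between Scr and Antp, where ftz lies in Release 6, were 2 sites. At 2696535 to 2696970, HA-AbdA stood at 88.9, M1BP at 57.8 in S2-AbdA cells and 52.1 in S2 cells, dRing at 83.4 and 89.2, and E(z) at 68.7 and 56.6, with no GAF. At 2718688 to 2720074, beside the lower end of Antp, dRing stood at 98.9 and 97.8, GAF at 84.5 and 59.9, E(z) at 66.8 and 59.2, and HA-AbdA at 6.87, with no M1BP. These neighbours show both kinds of site described above, a narrow one with M1BP and a broad one with GAF.

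Antp, the thoracic gene and the longest of the complex, held 60 peaks over 106 kb, or 5.66 per 10 kb, against 8.21 per 10 kb of Scr. dRing had 14 peaks there in S2-AbdA cells and 12 in S2 cells, GAF 10 and 7, E(z) 3 and 3, and M1BP 2 and 2. HA-AbdA had 5. The dRing count of S2 cells includes the peak at 2718688 to 2720074, which only crosses the lower end of the interval. By peak centre the dRing counts were 14 and 11. The lower part of the gene held the sites with HA-AbdA and E(z), at 2733741, 2737777 and 2755936. At 2733741, dRing stood at percentiles of 74.4 in S2-AbdA cells and 97.5 in S2 cells, and M1BP at 53.1 and 64.3. At 2755936, GAF stood at 95.6 and 77, and dRing at 96.4 and 98.9.

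Polymerase had 1 site in Antp. The Rpb3 peaks at 2758355 in S2-AbdA cells and 2758356 in S2 cells had percentiles of 59.6 and 45.5. They overlapped dRing (93.3 and 66.1), GAF (37.6 and 2.85) and HA-AbdA (15.8), and neither Ser2P nor E(z). The part of the gene above 2779853 held GAF and dRing with 1 HA-AbdA peak, at 2788479 with percentile 23.4. Just above the upper end of the interval, taken here as the start of Antp, lay a site at 2826149 to 2827163. It had dRing at 99.1 in S2-AbdA cells and 97.8 in S2 cells, E(z) at 70.2 and 74.3, GAF at 73.1 and 83.8, and HA-AbdA at 87.5. No polymerase peak lay at this site. Without dm3 gene models, any start inside the gene was not placed.

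To compare the lines, overlapping peaks of a factor were joined into regions, each with a peak in S2-AbdA cells alone, in S2 cells alone or in both. Without replicate lists, a region with a peak in 1 line alone is a difference between 2 lists. Polycomb regions of the complex were mostly shared. For dRing, 23 of 37 regions had a peak in both lines (62.2%) against 33.9% over the arms, 6 in S2-AbdA cells alone (42.6% over the arms) and 8 in S2 cells alone (23.5%). For E(z), 15 of 19 were in both (66.7% over the arms), 2 in S2-AbdA cells alone (12.6%) and 2 in S2 cells alone (20.7%). The shares for E(z) are near those over the arms, while the share of dRing regions in both lines was above that over the arms, in a stretch where dRing scores were high, and the part of the scores in that share was not tested. With lists of equal length, 1 dRing region was in S2-AbdA cells alone.

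HA-AbdA was at 19 of the 37 dRing regions (55.9% over the arms), 14 of the 19 E(z) regions (63.7%) and 11 of the 13 M1BP regions (61.7%). It was at 10 of the 24 GAF regions (54.4% over the arms), 3 of the 7 Rpb3 regions (63.7%) and 1 of the 3 Ser2P regions (58.4%). Among dRing regions in both lines, 14 of 23 had HA-AbdA (46.3% over the arms). Of the 8 dRing regions found in S2 cells alone, 4 had HA-AbdA (71.5% over the arms). These 4 lay at 2485639, 2585032, 2594025 and 2632415, with percentiles of 42.1, 87.4, 77.5 and 43.2. All 4 had M1BP in both lines and no GAF. Among S2 dRing peaks of the complex with HA-AbdA and M1BP but no GAF, 4 of 9 had no dRing peak in S2-AbdA cells, against 66.7% over the arms. With HA-AbdA and GAF it was 0 of 8, against 38.3%. With M1BP and no HA-AbdA it was 0 of 2 (22.3% over the arms), and with GAF and no HA-AbdA 0 of 4 (17.8%). Peaks with neither M1BP nor GAF and no HA-AbdA had 4 of 7 without a counterpart (44.4%). Of the 6 dRing regions in S2-AbdA cells alone, 1 had HA-AbdA (55% over the arms), at 2671312 in Scr with percentile 42.8. The others stood between 1.92 and 25.3.

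GAF differed most in number. Of its 24 regions, 12 had a peak in S2-AbdA cells alone (50%, against 47.7% over the arms), 1 in S2 cells alone (11.6%) and 11 in both (40.7%). The share in S2-AbdA cells alone is close to that over the arms, so it says nothing particular about the complex. With whole lists cut to equal length it was 7 regions. That cut does not make the lists equal on the arms. Before it, 9472 of 9530 GAF peaks of S2-AbdA cells lay on the arms, and 5407 of 7083 of S2 cells. Of the 12 in S2-AbdA cells alone, HA-AbdA was at 2 (51.9% over the arms), at 2482803 below lab and 2508931 above it. It was at 8 of the 11 in both (62.5% over the arms). The 12 stood at percentiles of 50.4 or less in the S2-AbdA list, with 4 of them in Antp, 1 in the pb interval and 1 in the Dfd interval.

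M1BP and Rpb3 changed little in number. M1BP had 11 of 13 regions in both lines (74.2% over the arms), 0 in S2-AbdA cells alone (7.44%) and 2 in S2 cells alone (18.4%). Rpb3 had 6 of 7 in both (69.2%), 0 in S2-AbdA cells alone (11.7%) and 1 in S2 cells alone (19.1%), at 2588963 between the pb and Dfd intervals. Ser2P had 1 of 3 in both (41.8%), 2 in S2-AbdA cells alone (56.6%), both in Scr, and 0 in S2 cells alone (1.53%).

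**Figure D5:**
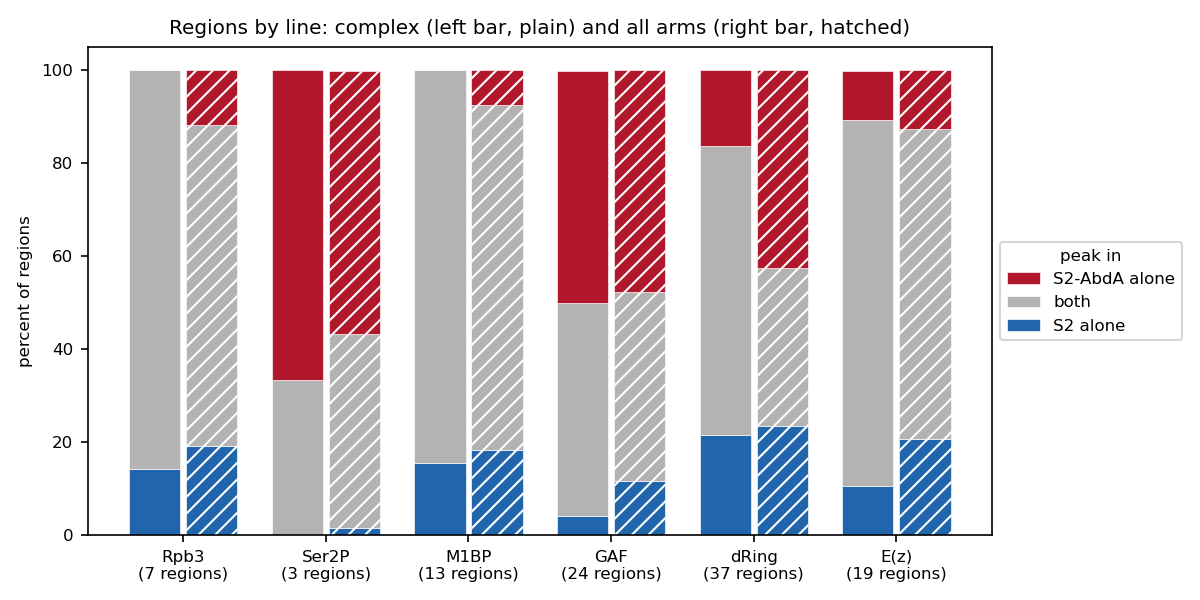
Percent of regions with a peak in S2-AbdA cells alone (red), in both lines (grey) or in S2 cells alone (blue), for the complex (left bar of each pair, plain) and all arms (right bar, hatched), with the number of regions in the complex under each factor. The complex and the arms differ most for dRing, where both lines share 62.2% of regions in the complex, and are close for GAF.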

How the data were processed

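ChIP-seq peak lists were analysed for the samples named above. Reads were aligned with BWA 0.7.12 and peaks called with MACS2 on dm3, per the submitters' processing notes; settings and the combination of replicates: not given in the sources used here. Each deposited list gives a position and a positive score of unstated unit, so the score was only ranked within its list. The largest peak end on 3R, 27898841, and the length of 3R in Release 6, 32079331, show that the reference at hand is of another build, so it gave gene names, order and spacing only, and promoter motifs were not searched.

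Overlaps, merged sites and regions were computed in Python 3.11.15 (numpy 2.4.6, pandas 2.3.3), intervals with scipy 1.17.1 and figures with matplotlib 3.10.9. Counts were checked with bedtools 2.31.1 (24 comparisons, 0 differed) and on simulated data (5 counts, 0 differed). Peaks named are the highest per gene and list, the 5 highest HA-AbdA peaks, regions of 1 line on HA-AbdA in a gene interval and the 3 sites with most lists. Other peaks named were chosen after their values were seen. The genes, members and lists were chosen with earlier results of these data known. Alternatives were the higher-scoring 50% of peaks, lists cut to equal length, centres within 250 bp, widened intervals and assignment by peak centre. Both cuts by score were made on whole lists, with peaks off the arms included. The HA control and input samples entered no comparison.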

Additional observations from a re-analysis of the deposited data

How the results depend on the processing

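No paired analysis was possible because each list stands for both replicates of its antibody and line, and leaving out a replicate could not be run for the same reason. Read depth is unknown, so how far it limits these counts cannot be given. With only the higher-scoring 50% of each list, peaks in the complex numbered 12 for HA-AbdA, 7 (S2-AbdA) and 5 (S2) for E(z), 11 and 6 for GAF, 5 and 8 for M1BP, 4 for Rpb3 in S2 cells and 0 for Ser2P in S2 cells, while those of dRing kept within 1.5 times. Regions then numbered 2 in S2-AbdA cells alone and 5 in S2 cells alone for dRing, 5 and 0 with 6 in both for GAF, and 1 and 0 for Rpb3. E(z) had 1 in S2 cells alone and 4 in both, M1BP 5 in both and Ser2P 0 in both. HA-AbdA overlap with E(z) fell to 33.3% (S2-AbdA lists) and 25% (S2 lists), with Ser2P to 0% and 0%, with M1BP of S2-AbdA cells to 33.3% and with Rpb3 to 8.33% in either line. With lists of equal length, regions in S2-AbdA cells alone numbered 7 for GAF and 1 for dRing. With centres within 250 bp as the rule, Ser2P had 1 region in S2 cells alone and 0 in both, and an HA-AbdA overlap of 0% in either line. Without the stretch below lab, an alternative chosen after seeing the data, Rpb3 had 2 peaks in S2-AbdA cells and 3 in S2 cells, Ser2P 0 in S2 cells, and the HA-AbdA overlap was 0% with Ser2P and 5.88% with Rpb3 in either line. Fewer peaks enter with the higher-scoring 50%, with lists of equal length and without the stretch below lab. Otherwise the cause of these changes was not tested. Gene totals with intervals widened by 2 kb were 17 for lab, 13 for pb, 7 for Dfd, 29 for Scr and 73 for Antp.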
